A study of Mus musculus with 21 samples.

Results

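The responses of mouse small-intestinal organoids to compound 6 and to compound 2, inhibitors of the kinases CDK8 and CDK19, were set side by side, gene by gene. Per the series' design text, the compounds are close analogues that came from a screen on WNT signalling. The comparison used 14 of the 21 arrays of the series: 3 of compound 2 (letters A to C of the sample titles), 4 of compound 6 (letters D to G) and the 7 vehicle arrays with those letters. For each of 21389 genes, the change with a compound was the mean over letters of compound minus the vehicle array of the same letter. Compound 2 was set against vehicle A to C and compound 6 against vehicle D to G, so no control array served both compounds, and 1 pair of compounds was compared. The arrays were chosen by their labels alone, with no measured value.

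Organoids are epithelial cultures that grow in Matrigel from isolated crypts. Every one of the 14 samples carried the same transgenes: human myc-tagged beta-catenin lacking its N-terminal stretch (ΔN89, a form that escapes degradation) under a Tet-O promoter, and M2-rtTA, the doxycycline-dependent activator, expressed from the endogenous ROSA26 locus of KH2 embryonic stem cells. Chimeras made from these cells were crossed with C57/BL6-J mice. Doxycycline was present in all 14 cultures, vehicle included, so the mutant beta-catenin was switched on in controls and treated cultures alike. Per the labels, each compound was given at 2 µM for 24 h, and the medium contained EGF, Noggin and R-spondin 1, the last of which amplifies Wnt signalling. The labels do not say whether the letters are separate cultures or animals, so p-values speak only to the spread among the arrays at hand, which may be technical.

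CDK8 and its paralogue CDK19 are the kinases of a detachable module of Mediator, the complex that links transcription factors to RNA polymerase II, and CDK8 was described as a partner of beta-catenin in colorectal cancer cells. In crypts, Wnt signalling through beta-catenin maintains stem cells and switches on its own inhibitors, such as Axin2 and Rnf43. The transcription factor NRF2 governs a separate programme, the enzymes that make glutathione and NADPH and detoxify electrophiles.

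Levels are given as the log2 of sample over a common reference RNA on the same array, so they compare arrays for a gene and not genes with each other. Changes are on the same log2 scale with the SE of limma's moderated fit. A change or a difference was called when its Benjamini-Hochberg adjusted p over all genes was under 0.05. Fewer cells of a type and less RNA per cell cannot be told apart in these bulk samples. Arrays of the same letter deviated together from their group means. A value with the letter fitted as a block is therefore added where it changed the call of a gene described here, and for many list counts. List counts given without such a value may also have moved with the block.

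The vehicle cultures did not start alike. Between vehicle D to G and vehicle A to C 11415 genes differed (53.4% of those tested), 6081 higher in D to G (28.4%) and 5334 lower (24.9%). The letter sets were scanned on separate days, so culture history and scan cannot be told apart. All 15 epithelial markers measured stood well above background on at least 1 array of each of the 4 groups. Vehicle F stood apart from vehicle D, E and G: Lgr5, the receptor that marks crypt stem cells, was at 1.00 there against 3.71 to 4.24, and the replication gene Rrm2 at -4.95 against -1.83 to -1.64. Results that rest on this array are given with and without it. In the sample channel 40.9% to 49.4% of spots were well above background, and the number of arrays limits the precision: the median SE was 0.12 for a compound 2 change, 0.10 for a compound 6 change and 0.15 for their difference.

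Many genes changed in the same direction with both compounds, and more genes were called with compound 6. Compound 6 had more arrays and a smaller median SE, and its letter set was separate, so the counts alone do not rank the compounds. The compound 6 change was the larger in size for 60.9% of all genes. Among genes that passed with both in the same direction it was the larger for 49.4%. With compound 2, 1140 genes changed (5.33% of those tested), of which 711 rose (3.32%) and 429 fell (2.01%). With compound 6, 5310 changed (24.8%), of which 2432 rose (11.4%) and 2878 fell (13.5%). Of these, 467 rose with both (2.18%) and 331 fell with both (1.55%), 798 genes in all, which is 70.0% of the genes called with compound 2 and 15.0% of those called with compound 6. Only 5 genes passed in both with opposite signs (0.0234%). The letter block raised the count to 3710 (17.3%) with compound 2, 2010 higher (9.40%) and 1700 lower (7.95%), and to 8829 (41.3%) with compound 6, 3725 higher (17.4%) and 5104 lower (23.9%). With it 1287 genes rose with both (6.02%), 1290 fell with both (6.03%) and 57 changed in opposite directions. Without the letter F arrays 2305 genes passed with compound 2 (10.8%), 6511 with compound 6 (30.4%) and 1533 in the same direction. The counts for compound 2 rested on few arrays: leaving out its array A or C, or vehicle A or C, left 547, 615, 635 and 729 genes, and 423, 462, 466 and 520 in the same direction as compound 6. The split into rises and falls moved with the scaling. Under median centring, which shifted the median of all genes to -0.12 with compound 2 and -0.11 with compound 6, 279 genes rose and 1650 fell with compound 2, 1142 rose and 4603 fell with compound 6, and 168 rose and 1316 fell with both. Under the scanner's own log ratios compound 2 gave 380 rises and 398 falls, and 287 genes rose and 309 fell with both.

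Direction agreed more widely than the calls. Among the 1140 genes called with compound 2, 96.0% had the same sign with compound 6, against 67.0% of all genes tested. Among the 5310 called with compound 6, 80.3% had the same sign with compound 2. Genes that rose with compound 2 had a median change of 0.54 with it and 0.40 with compound 6, and genes that rose with compound 6 had medians of 0.16 with compound 2 and 0.45 with compound 6. Genes lower with compound 2 had medians of -0.43 and -0.40, and those lower with compound 6 had -0.17 and -0.39, in the same order. For changes of 2-fold or more, 112 genes passed with compound 2, 369 with compound 6 and 52 with both in the same direction.

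Across all 21389 genes the mean changes correlated at r = 0.569 (Spearman's rho 0.514), a description across genes, which are not independent replicates. Single letters of different compounds correlated at 0.354 to 0.581 over 12 pairs (median 0.433, SD 0.0550). Letters of compound 2 correlated with each other at 0.525 to 0.680 over 3 pairs, and letters of compound 6 at 0.563 to 0.826 over 6 pairs. The lowest compound 6 correlations, 0.563 to 0.615, were the 3 that involved letter F. Taken slide against slide, the compounds' changes correlated at 0.376 to 0.491. On the slides of compound 6 the compound and vehicle arrays were not all of the same letters.

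**Figure D1:**
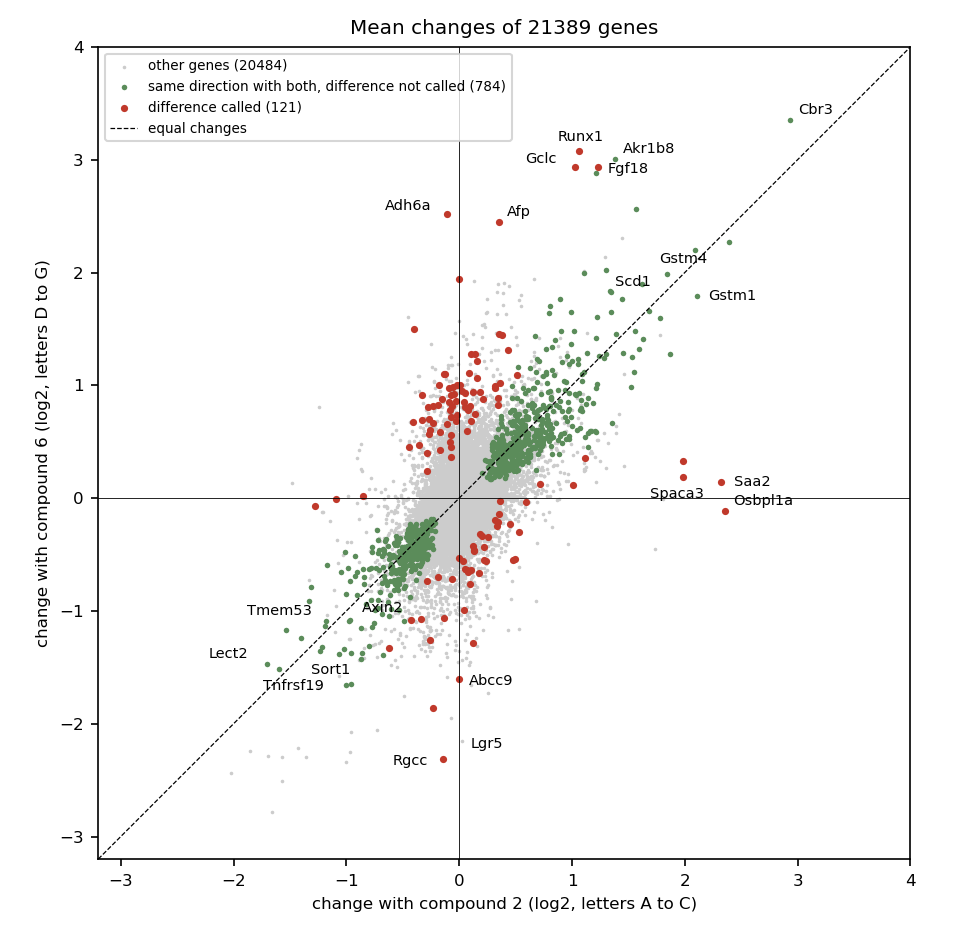
Mean log2 change with compound 2 (x axis) against mean log2 change with compound 6 (y axis), one point per gene, with the dashed line marking equal changes. Green points, 784 genes that changed the same way with no called difference, run along the line from Tnfrsf19 to Cbr3, while red points, the 121 genes with a called difference, lie mostly near the vertical axis, where only compound 6 moved them.

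Among the 12 leading genes that rose with both compounds were detoxifying enzymes (Cbr3, Gstm4, Gstm1, Akr1b8, Cyp3a41b and Ces3a), the desaturases Scd1 and Scd3, and Tex12, Cypt9, Stfa2 and Pde2a. Cbr3 (carbonyl reductase 3, which reduces quinones and other carbonyls; probe at chr16:93691120-93691179, mm9) stood at -1.89, -2.95 and -2.16 in vehicle A to C and at 1.00, 0.08 and 0.72 with compound 2. In the other set it stood at 0.37, 0.57, 1.27 and -0.00 in vehicle D to G and at 3.89, 3.89, 4.36 and 3.50 with compound 6. Treated and vehicle arrays did not overlap within either set, but the compound 2 arrays lay in the range of vehicle D to G. Taken within slides the change was 2.88 and 2.96 for compound 2 (2 slides) and 3.07, 3.12 and 4.36 for compound 6 (3 slides). The slides did not keep the letters of compound 6 paired. The value of 4.36 sets compound 6 of letter F against vehicle of letter G. Its rise was 2.93 ± 0.34 with compound 2 (adjusted p = 4.85e-05) and 3.35 ± 0.29 with compound 6 (adjusted p = 3.98e-07). The difference, 0.42, had a 95% interval of -0.51 to 1.36, so a difference of up to 1.36 in favour of compound 6 remained within the error.

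Glutathione transferases of the mu class, which attach glutathione to electrophiles, followed. Gstm1 lay between 1.71 and 1.93 in vehicle A to C and between 3.86 and 4.07 with compound 2, between 3.02 and 3.52 in vehicle D to G and between 4.82 and 5.30 with compound 6. Its rise was 2.11 ± 0.15 with compound 2 and 1.79 ± 0.13 with compound 6, with a difference of -0.32 (95% interval -0.72 to 0.08). Gstm4 rose by 1.84 ± 0.13 and 1.99 ± 0.11 (difference 0.15, -0.22 to 0.51), and Gstm2 by 1.02 ± 0.10 and 1.48 ± 0.09 (difference called with the block, adjusted p = 0.0205). Genes of this cluster are close paralogues. The file places the Gstm1 probe on chr5:117082490-117082549 (mm9), apart from the cluster on chromosome 3 where the Gstm2 probe lies (chr3:107784622-107784681), so which copy it reads is uncertain. Other probes gave 1.98 and 1.48 for Gstm1, and 0.50 and 0.91 for Gstm4.

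Of 23 glutathione transferases measured, 6 rose with compound 2 and 14 with compound 6, 5 of them with both, and none fell; the list median was 0.14 and 0.33, where all genes had medians of 0.00 and -0.03. Gsta3, an alpha-class transferase, rose by 0.81 ± 0.18 with compound 2 and by 1.70 ± 0.16 with compound 6. Its per-letter changes were 0.66, 0.91 and 0.86 against 1.78, 1.60, 1.59 and 1.84, with no overlap, yet the difference of 0.89 (0.39 to 1.40) was not called (adjusted p = 0.093). It passed with the letter block (adjusted p = 0.00528) and without the letter F arrays (0.93, adjusted p = 0.032). Mgst3, a membrane-bound transferase, rose by 0.34 ± 0.09 and 0.89 ± 0.07, and its difference of 0.55 was the 1 called in the list (adjusted p = 0.0339; the background is 0.566%). The compound 2 call of Mgst3 was lost under 8 of 27 alternatives and that of Gsta3 under 4. With the block 7 transferases differed, all more strongly raised by compound 6, and 1 transferase fell with compound 6.

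Among 25 carbonyl, aldo-keto and aldehyde-oxidising enzymes, 7 rose and 1 fell with both compounds, and limma called no difference (3 at an unadjusted p under 0.05, 2 with the block). Akr1b8, an aldo-keto reductase, rose by 1.27, 1.16 and 1.71 in letters A to C and by 3.25, 3.10, 2.68 and 2.99 in letters D to G. Its mean changes were 1.38 ± 0.34 and 3.01 ± 0.29, and the difference of 1.63 (0.69 to 2.56) was not called (adjusted p = 0.0966). It passed with the block (adjusted p = 0.00159) and without the letter F arrays (1.73, adjusted p = 0.000854). The compound 2 call of Akr1b8 was lost under 7 of 27 alternatives. Aldh1a1, which makes retinoic acid, rose by 0.83 ± 0.12 and 1.13 ± 0.11, and Akr1c12 by 0.65 ± 0.11 and 0.85 ± 0.09. The member that fell, Cbr4, changed by -0.55 ± 0.13 with compound 2 and -0.55 ± 0.11 with compound 6.

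The antioxidant and NADPH-producing enzymes of the NRF2 programme rose with both and more of them with compound 6. Of 30 members, 13 rose with compound 2 and 21 with compound 6, 12 with both, and none fell. The list median was 0.31 and 0.56. By letter it was 0.40, 0.27 and 0.33 with compound 2 and 0.67, 0.63, 0.57 and 0.56 with compound 6, so the letters of the compounds did not overlap. Nqo1, which reduces quinones, rose by 0.69 ± 0.17 and 1.03 ± 0.15, with a difference of 0.34 (-0.14 to 0.82). Its compound 2 call was lost under 8 of 27 alternatives, and the sign was reversed under 1. Slc7a11, the cystine importer, and Srxn1, sulfiredoxin, rose with compound 6 (1.08 ± 0.19 and 0.81 ± 0.09), where compound 2 gave 0.30 ± 0.22 and 0.27 ± 0.10.

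Gclc, the catalytic subunit of the enzyme that begins glutathione synthesis, differed most clearly. Vehicle A to C gave 0.75, 0.95 and 0.70 and compound 2 gave 1.71, 1.67 and 2.11; vehicle D to G gave 1.20, 1.36, 1.88 and 1.04 and compound 6 gave 4.22, 4.25, 4.75 and 4.02. Within each set the treated arrays lay above their vehicle arrays, and the compound 6 arrays lay above all others; across the sets vehicle F reached the range of the compound 2 arrays. Gclc rose by 1.03 ± 0.19 with compound 2 and by 2.94 ± 0.17 with compound 6, and the difference of 1.91 (1.37 to 2.45) was called (adjusted p = 0.00169). Gsr, glutathione reductase, and Pgd, an NADPH-producing enzyme of the pentose phosphate pathway, differed as well: Gsr rose by 0.43 ± 0.11 and 1.31 ± 0.10 (difference 0.88, 0.57 to 1.19, adjusted p = 0.00934) and Pgd by 0.32 ± 0.07 and 0.97 ± 0.06 (difference 0.65, 0.47 to 0.84, adjusted p = 0.00169). These 3 were the members of the list with a called difference. With the letter block 10 members differed, and without the letter F arrays 9, all higher with compound 6. The block also called 1 fall with each compound. The compound 2 call of Gsr was lost under 11 of 27 alternatives and that of Pgd under 3.

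**Figure D2:**
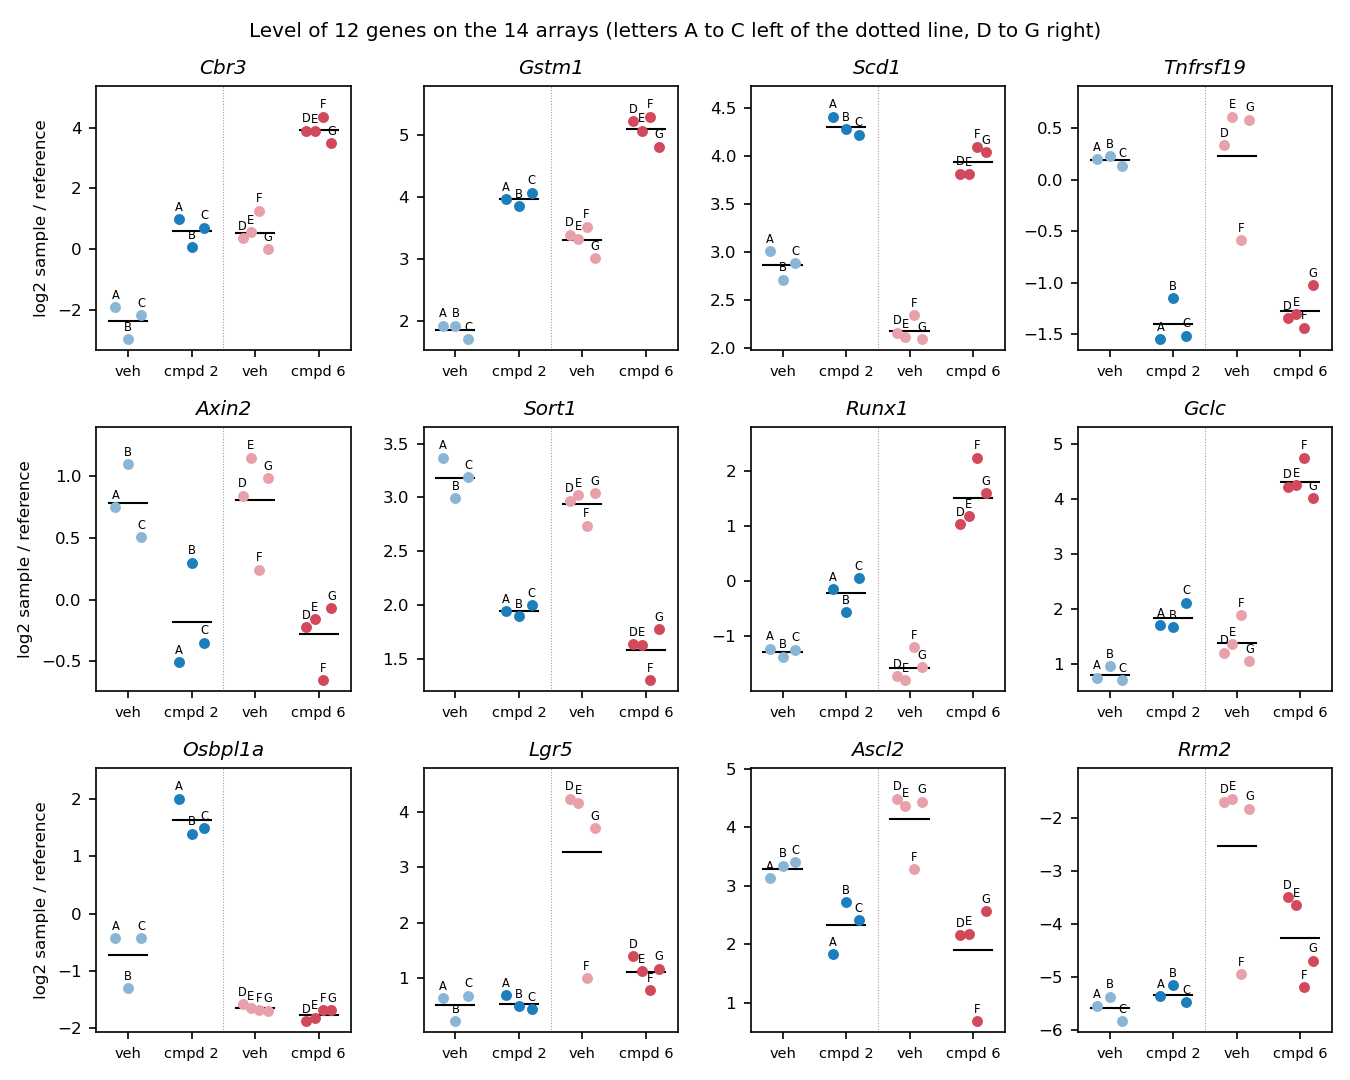
Level (log2 sample over reference) of 12 genes on each of the 14 arrays, one point per array with its letter, and a bar at the group mean. Cbr3, Gstm1 and Scd1 rose and Tnfrsf19, Axin2 and Sort1 fell within both letter sets, Runx1 and Gclc rose further with compound 6, Osbpl1a rose with compound 2 alone, and for Lgr5, Ascl2 and Rrm2 vehicle F lies below vehicle D, E and G.

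Of the lipid enzymes, few passed with both compounds. Scd1, the stearoyl-CoA desaturase that makes monounsaturated fatty acids, stood at 3.01, 2.71 and 2.88 in vehicle A to C and at 4.41, 4.28 and 4.23 with compound 2. In the other set vehicle arrays lay at 2.09 to 2.34 and compound 6 arrays at 3.81 to 4.10. The rises were 1.44 ± 0.10 and 1.77 ± 0.09 (difference 0.33, 0.04 to 0.61, adjusted p = 0.267). Scd3, a paralogue, rose by 1.63 ± 0.17 and 1.41 ± 0.15, although a second Scd3 probe gave 0.07 and 0.59, so the copies may share signal. Elovl6, which lengthens saturated fatty acids, rose by 0.67 ± 0.08 and 0.82 ± 0.07. Of 27 genes of fatty acid synthesis, 7 rose with compound 2, 10 rose and 1 fell with compound 6, and 5 rose with both. With the block 12 rose and 1 fell with compound 2, and 12 rose and 4 fell with compound 6.

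Of 27 genes of cholesterol synthesis, 2 rose with compound 2, 10 rose and 1 fell with compound 6, and 1 rose with both. With the block 8 rose with compound 2, and 15 rose and 2 fell with compound 6. Insig2, which holds back the processing of the sterol regulator SREBP, showed the 1 called difference of that list. It changed by 0.14 ± 0.09 with compound 2 and rose by 0.75 ± 0.08 with compound 6 (difference 0.61, 0.36 to 0.86, adjusted p = 0.023), but a second probe gave 0.31 and 0.33.

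Few cytochromes P450 of the xenobiotic-metabolising families passed with both compounds. Cyp3a41b rose by 2.09 ± 0.44 and 2.20 ± 0.38, Cyp2c55 by 1.53 ± 0.24 and 0.98 ± 0.20, and Cyp3a11 by 0.95 ± 0.26 and 1.26 ± 0.22, a compound 2 call lost under 11 of 27 alternatives. A probe may read several Cyp3a paralogues. The carboxylesterase gene Ces3a rose by 1.68 ± 0.48 and 1.66 ± 0.41, and its compound 2 call was lost under 14 of 27 alternatives, with values down to 0.29. Cyp2c70, which hydroxylates bile acids in mice, fell by 1.32 on the log2 scale with compound 2 and by 0.79 with compound 6. Of the 31 P450 genes listed and measured, 2 rose and 1 fell with compound 2, 10 rose and 4 fell with compound 6, and limma called no difference (7 at an unadjusted p under 0.05, 6 with the block). With the block 5 rose and 2 fell with compound 2, and 13 rose and 7 fell with compound 6.

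Other genes with large rises in both were Pde2a, a cyclic nucleotide phosphodiesterase (1.39 ± 0.18 and 1.46 ± 0.16), Stfa2, a protease inhibitor (1.56 ± 0.23 and 1.48 ± 0.20), Tex12, a gene of the meiotic synaptonemal complex (1.78 ± 0.21 and 1.60 ± 0.18), and Cypt9 (1.57 ± 0.33 and 2.56 ± 0.28, a difference called with the block, adjusted p = 0.0218). Leaving out the letter F arrays, the Cypt9 difference was 1.02 and was not called (adjusted p = 0.204). For Pde2a, Stfa2 and Tex12 the per-letter changes of the compounds overlapped. Their differences were 0.07, -0.08 and -0.18, each with an interval inside -1 to 1.

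The 12 leading genes that fell with both compounds included 4 of the stem cell or Wnt feedback lists, Tnfrsf19, Rnf43, Axin2 and Cdca7, beside Lect2, Sort1, Kcnq1 and others outside them. Tnfrsf19 (Troy, a receptor of Wnt-dependent stem cells that dampens the pathway; probe at chr14:61582873-61582932, mm9) stood at 0.20, 0.23 and 0.14 in vehicle A to C and at -1.55, -1.15 and -1.51 with compound 2. It stood at 0.33, 0.61, -0.59 and 0.58 in vehicle D to G and at -1.34, -1.30, -1.44 and -1.03 with compound 6. Neither treated group overlapped its vehicle. The fitted falls were -1.59 ± 0.23 and -1.51 ± 0.20, with a difference of 0.08 (-0.56 to 0.71). Only 1 of the 4 compound 6 arrays had this probe well above background, against all 3 with compound 2, so the compound 6 values lie at or near background. A dimmer probe gave -0.43 and -0.17.

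The ubiquitin ligase Rnf43, which removes Frizzled receptors, and Axin2, a scaffold of the beta-catenin destruction complex, are textbook Wnt feedback genes. Rnf43 lay at 2.82, 3.27 and 2.65 in vehicle A to C against 1.61, 2.27 and 1.29 with compound 2, and at 3.04 to 3.71 in vehicle D to G against 1.73 to 2.68 with compound 6. It changed by -1.19 ± 0.26 and -1.13 ± 0.23 (difference 0.06, -0.67 to 0.79). Axin2 changed by -0.97 ± 0.25 (adjusted p = 0.0288) and -1.08 ± 0.22 (adjusted p = 0.00143), a difference of -0.11 (-0.81 to 0.58), and a second probe gave -0.07 and -0.41. With either compound only 1 array had the Axin2 probe well above background, while all 7 vehicle arrays did. Nkd2, an inhibitor of Dishevelled, fell with both too (-0.43 ± 0.09 and -0.23 ± 0.08). Of 13 Wnt feedback genes measured, these 4 fell with compound 2, and 6 fell and 1 (Notum) rose with compound 6; limma called no difference (2 at an unadjusted p under 0.05, 1 with the block).

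The sorting receptor Sort1 (chr3:108164349-108164408, mm9) fell by a similar amount on every letter, -1.42, -1.10 and -1.19 with compound 2 and -1.33, -1.39, -1.44 and -1.27 with compound 6. Its mean changes were -1.24 ± 0.12 and -1.36 ± 0.11 (difference -0.12, -0.46 to 0.23). The other probes, of lower signal, gave -0.69 and -0.80, and -0.04 and -0.11. Tmem53 had the narrowest interval among the leading falls: -1.18 ± 0.08 and -1.09 ± 0.07, with a difference of 0.09 (-0.14 to 0.32). The potassium channel gene Kcnq1 fell by 1.54 and 1.17, a pair that a second probe gave as -1.40 and -1.40.

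Further genes that fell with both were Lect2, a secreted target of beta-catenin in liver (-1.70 ± 0.36 and -1.47 ± 0.31), Tgfbi, a matrix protein induced by TGF-beta (-1.01 ± 0.28, a call lost under 15 of 27 alternatives, and -1.65 ± 0.24), and Cdca7, a Myc target of cycling cells (-0.96 ± 0.26 and -1.64 ± 0.22). Radx changed by -1.21 ± 0.22 and -1.32 ± 0.19, Tstd3 by -1.02 ± 0.19 and -1.34 ± 0.16, Aifm3 by -0.98 ± 0.17 and -1.09 ± 0.15, and Odc1, the first enzyme of polyamine synthesis, by -0.72 ± 0.13 and -0.37 ± 0.12 (difference called with the block, adjusted p = 0.0395). The Odc1 difference was not called without the letter F arrays (0.37, adjusted p = 0.0519). That of Cdca7 was called without the letter F arrays (-0.995, adjusted p = 0.00386) and without vehicle F alone (-1.03, adjusted p = 0.00161). The intervals of the difference lay within -1 to 1 for Radx, Tstd3, Aifm3 and Odc1, and reached beyond it for Lect2 (-0.77 to 1.23), Tgfbi (-1.43 to 0.14) and Cdca7 (-1.40 to 0.02). Counting all genes, 742 of the 798 changed the same way with an interval inside -1 to 1 (3.47% of those tested), 424 higher and 318 lower.

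**Figure D3:**
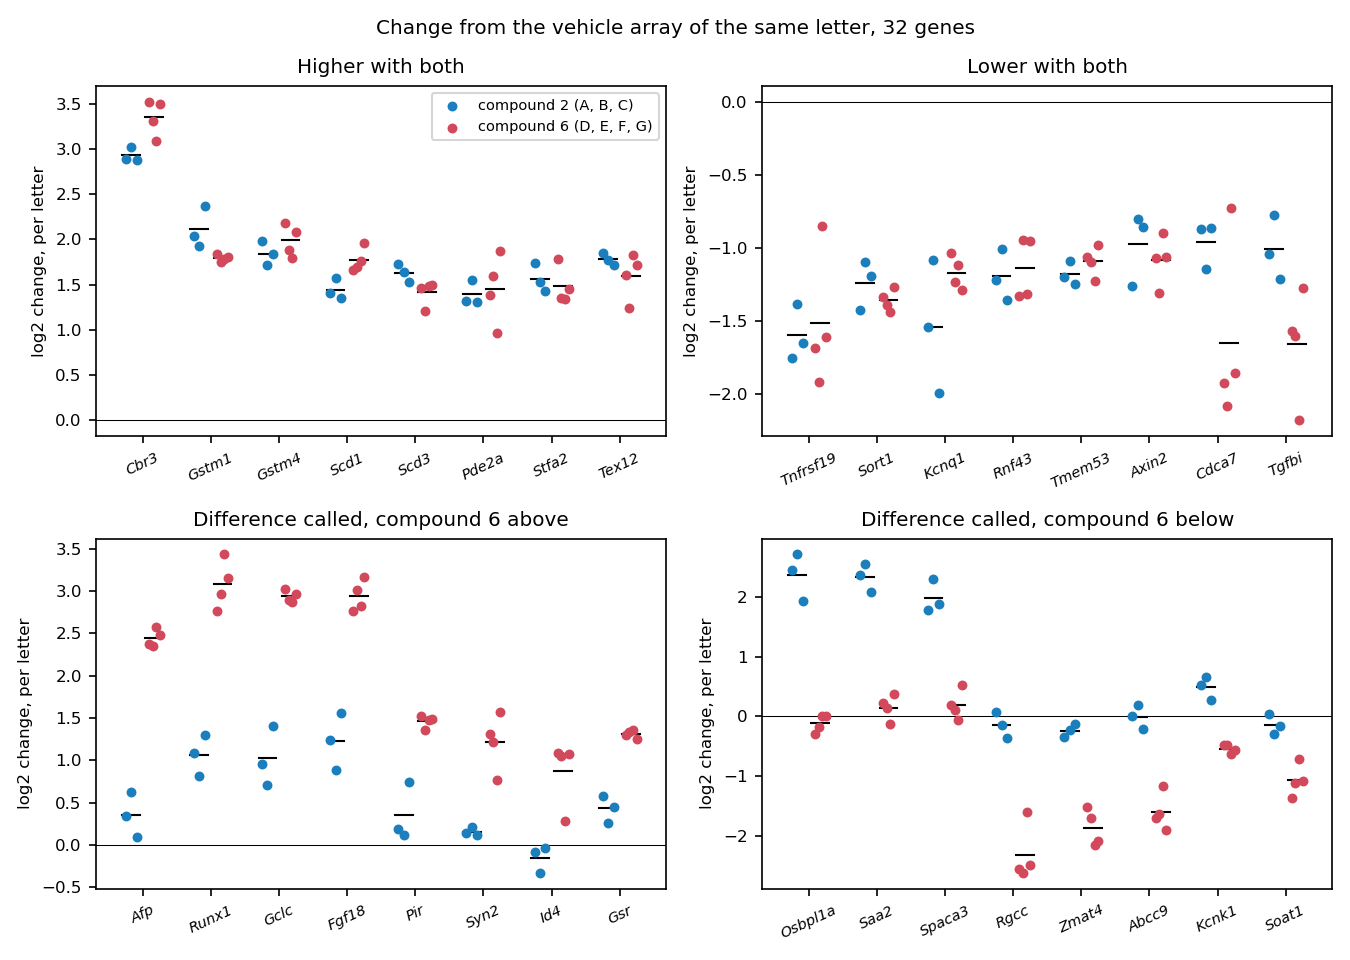
Log2 change from the vehicle array of the same letter for 32 genes, one point per letter (blue compound 2, red compound 6), bars at the means. In the upper panels the points of the compounds overlap for Gstm4, Pde2a, Stfa2 and Tex12 and for every gene that fell except Tgfbi; in the lower panels, which hold genes chosen for a called difference, they are separate for each gene shown.

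Promoters of genes in these groups, from 250 bases before to 50 after the start, were taken from RefSeq (GRCm38.p6) for 11717 of the 21389 genes and searched on both strands for the antioxidant response element letters TGACNNNGC and the TCF letters CTTTGAT. The first was found in 17.9% of 302 promoters of genes higher with both compounds and in 16.4% of all 11717. It was found in 13.8% of 246 promoters of genes lower with both. For called differences the share was 19.4% of 31 promoters more positive with compound 6 (6 genes) and 25.8% of 31 more negative (8 genes). The second was found in 5.28% of 246 promoters of genes lower with both (13 genes) and in 3.18% of all. It was found in 1.32% of those higher with both (4 genes). The sterol response letters TCACNCCAC were searched too. They were found in 1.66% of promoters of genes higher with both, 0.41% of those lower with both and 1.42% of all. A match describes letters and shows no binding. Among the genes named here, matches went with either direction. Soat1 and Rrm2, whose changes with compound 6 were negative, held the antioxidant letters, and Atoh1, which rose with it, held both. Cbr3, Nqo1 and Gstm1 lacked the antioxidant letters, and Axin2, Rnf43, Lef1 and Tcf7 lacked the TCF letters. The stretches below are examples. Gsta3 (shared rise) and Pir (rise with compound 6) are shown with the antioxidant letters. Tnfrsf19 and Lect2 (shared falls) and Sp5 (fall with compound 6) are shown with the TCF letters. Each is written 5′ to 3′ along the gene, with the match in capitals; in Pir, Tnfrsf19 and Lect2 it lies on the opposite strand, so its reverse complement is seen. The Gsta3 stretch is chr1:21240424-21240512 (+), Pir chrX:164269181-164269265 (+), Tnfrsf19 chr14:61038143-61038229 (-), Lect2 chr13:56548539-56548610 (-) and Sp5 chr2:70474779-70474865 (+).
Gsta3: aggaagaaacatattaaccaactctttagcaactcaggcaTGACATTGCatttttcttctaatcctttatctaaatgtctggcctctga
Pir: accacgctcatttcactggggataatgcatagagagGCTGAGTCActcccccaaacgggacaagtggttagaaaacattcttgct
Tnfrsf19: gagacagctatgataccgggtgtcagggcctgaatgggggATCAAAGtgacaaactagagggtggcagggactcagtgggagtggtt
Lect2: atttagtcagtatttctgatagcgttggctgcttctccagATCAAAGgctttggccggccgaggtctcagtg
Sp5: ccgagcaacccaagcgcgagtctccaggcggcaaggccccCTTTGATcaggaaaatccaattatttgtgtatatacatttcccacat
Counted from the start of the gene, the match begins 121 bases before it in Gsta3, 214 in Pir, 202 in Tnfrsf19, 32 in Lect2 and 104 in Sp5.

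The difference of the changes was called for 121 genes (0.566% of those tested), 74 more positive with compound 6 (0.346%) and 47 more negative (0.220%). Of the 74, 61 had passed with compound 6 alone, 3 with compound 2 alone, 9 with both in the same direction and 1 in opposite directions. Of the 47, 27 had passed with compound 6 alone, 11 with compound 2 alone, 5 with both in the same direction and 4 in opposite directions. With the letter block 1967 genes differed (9.20%), 972 up (4.54%) and 995 down (4.65%); without the letter F arrays 1533 differed (7.17%), and all 121 were among them in both cases. Without the compound 6 array of letter G the count was 488, and without the vehicle array of letter F it was 1584, again with all 121. Leaving out compound 2 A, B or C, compound 6 D or E, or vehicle A, B, D, E or G, 1 at a time, lowered it to between 45 and 71. Among these genes the share more positive with compound 6 was 61.2%, and it was 85.5% under median centring, 80.0% in the sample channel alone and 37.0% without the letter F arrays. For all 121 the per-letter changes of the compounds did not overlap, as for 19.8% of all genes. The vehicle sets themselves differed for 81 of the 121 (66.9%, against 53.4% of all genes) and for 41 of the 47 that were more negative; whether the starting level bears on the difference was not tested. The difference could be bounded for most genes: the interval lay inside -1 to 1 for 90.7% of them.

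Runx1, a transcription factor of blood and epithelial stem cells (chr16:92605785-92605844, mm9), had a called difference under every alternative run. It stood at -1.22, -1.37 and -1.24 in vehicle A to C and at -0.14, -0.56 and 0.05 with compound 2, at -1.72, -1.80, -1.20 and -1.56 in vehicle D to G and at 1.03, 1.17, 2.24 and 1.59 with compound 6. The vehicle sets overlapped and both treated groups stood above them, the compound 6 arrays above the compound 2 arrays. Its rises were 1.06 ± 0.23 and 3.08 ± 0.20, with a difference of 2.02 (1.37 to 2.67, adjusted p = 0.00609), and a second probe gave 0.76 and 2.36. Fgf18, a growth factor of the FGF family, behaved alike, with rises of 1.23 ± 0.24 and 2.94 ± 0.21 (difference 1.71, 1.03 to 2.39, adjusted p = 0.0195) and 1.09 and 2.73 by a second probe. Of 22 genes of the Runx and FGF list, 5 rose with compound 2, 9 rose and 3 fell with compound 6, and these 2 differed. With the block 9 rose and 2 fell with compound 2, and 4 differed upwards and 1 downwards. Csf1r, the receptor for macrophage colony-stimulating factor, rose with compound 6 (1.05 ± 0.15) where compound 2 gave 0.44 ± 0.17 (adjusted p = 0.0436 with the block), a difference that was not called. Other Csf1r probes gave smaller changes, 0.68 and 0.26 with compound 6 against 0.17 and -0.13 with compound 2.

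Pir (pirin, an iron-containing nuclear protein and a known NRF2 target) rose by 1.52, 1.35, 1.47 and 1.49 with compound 6, while letters A to C gave 0.19, 0.12 and 0.75. The means were 1.46 ± 0.14 and 0.35 ± 0.16, and the difference 1.11 (0.67 to 1.54, adjusted p = 0.0194). Gss, glutathione synthetase, and Prdx6, a peroxiredoxin, belong to the same glutathione chemistry and rose with compound 6: Gss by 0.45 ± 0.07 against -0.08 ± 0.08 (difference 0.53, adjusted p = 0.0222) and Prdx6 by 0.60 ± 0.11 against -0.26 ± 0.12 (difference 0.86, adjusted p = 0.0194), where the compound 2 value passed with the block as a fall (adjusted p = 0.0338). Syn2, a synaptic vesicle protein, rose by 1.22 ± 0.11 against 0.16 ± 0.13 (difference 1.06, adjusted p = 0.00609), although a second probe gave 0.41 and -0.12.

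Afp and Alb, genes of liver and fetal gut, rose with compound 6. Afp, alpha-fetoprotein, was at -1.72 to -0.55 in vehicle A to C and at -1.10 to -0.21 with compound 2, which overlap, and at -0.22 to 0.52 in vehicle D to G and 2.36 to 2.90 with compound 6, which do not. It rose by 2.45 ± 0.30 against 0.35 ± 0.35 (difference 2.09, 1.12 to 3.07, adjusted p = 0.0483), a call lost under 20 of 27 alternatives. Alb, albumin, was well above background only with compound 6, where it was at least 1.57-fold higher than in vehicle (adjusted p = 0.000177). Its change with compound 2 was therefore not measured. Id4, an inhibitor of helix-loop-helix factors, was likewise measured with compound 6 alone, on 3 of 4 arrays, and was at least 1.64-fold higher there. Such bounds set the bright group against the lowest signal that counted as above background.

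Adh6a, an alcohol dehydrogenase, showed the largest fitted difference among the genes named here, but its size and sign moved with the signal used. It changed by -0.10 ± 0.21 with compound 2 and 2.52 ± 0.18 with compound 6 (difference 2.62, adjusted p = 0.000261). The reference signal of its probe, the same RNA on every array, was 5.11 lower on the log2 scale in letters D to G (6.03) than in A to C (11.1), whereas the same gap was -0.78 at the 1st percentile of all genes and 0.82 at the 99th. The difference was 2.19 in the sample channel alone, 0.14 under the scanner's log ratios and -0.76 in the deposited series matrix, so no direction is given for it. The part of the reference signal in this was not tested.

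**Figure D4:**
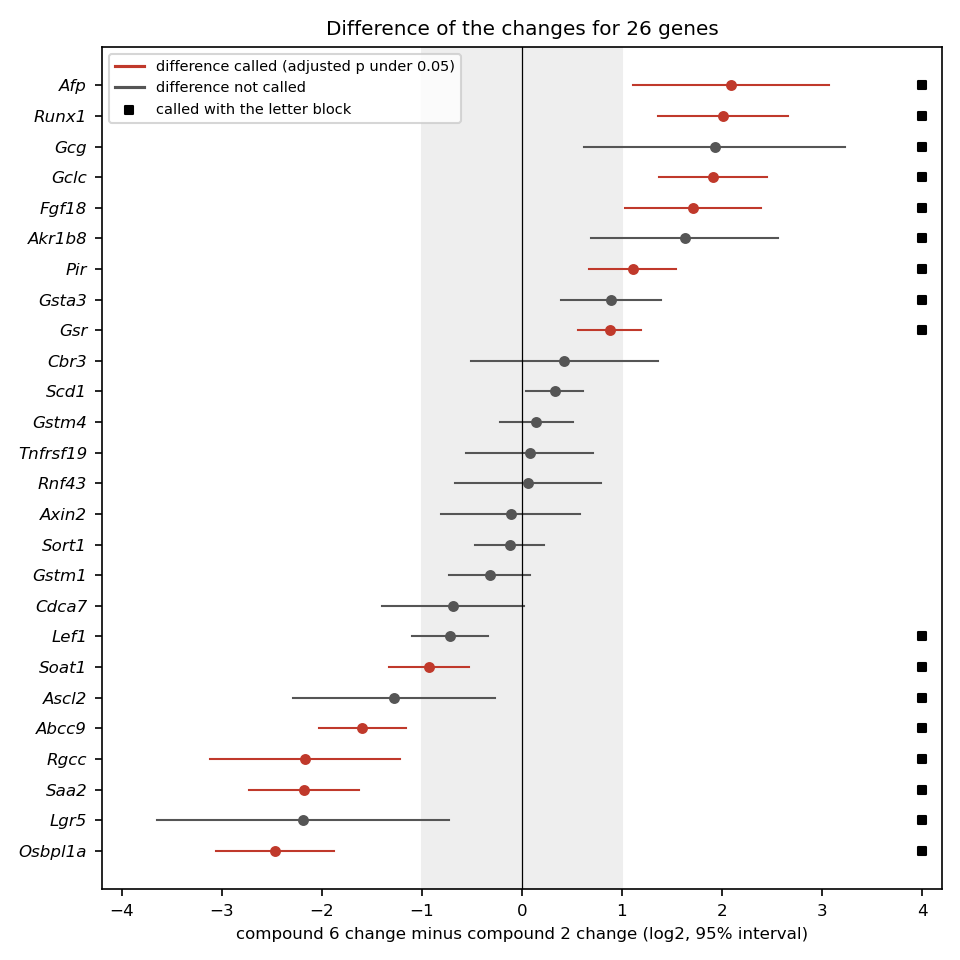
Compound 6 change minus compound 2 change with its 95% interval for 26 genes, red where the difference was called, a black square where it was called with the letter block. The grey band spans -1 to 1; the intervals of Scd1, Gstm4, Tnfrsf19, Rnf43, Axin2, Sort1 and Gstm1 lie inside it, and those of Afp, Gclc, Runx1, Fgf18, Abcc9, Rgcc, Saa2 and Osbpl1a lie outside it. For Tnfrsf19, Axin2, Abcc9 and Saa2 some groups lay at or near background, so their intervals are those of fitted values.

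In the other direction Osbpl1a, an oxysterol-binding protein, showed a change with compound 2 alone. Its levels were -0.43, -1.30 and -0.43 in vehicle A to C and 2.01, 1.40 and 1.50 with compound 2, against -1.59 to -1.70 in vehicle D to G and -1.69 to -1.89 with compound 6. It rose by 2.36 ± 0.21 with compound 2 and changed by -0.11 ± 0.18 with compound 6, a difference of -2.47 (-3.06 to -1.88, adjusted p = 0.000539) that was called under every alternative run. Other probes gave 2.08 and -0.15, and 0.24 and -0.31.

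The serum amyloid genes, secreted acute-phase proteins that gut epithelium makes on contact with microbes and cytokines, were raised further by compound 2. Saa2 was well above background on all 3 compound 2 arrays and on none of the other arrays, and was at least 3.66-fold higher than in vehicle (fitted change 2.33, adjusted p = 1.57e-06). With compound 6 both groups were at background, so neither that change nor the size of the difference was measured; the fitted difference was called (adjusted p = 0.000809). Saa1 rose with both, by 1.11 ± 0.10 and 0.36 ± 0.08, with a difference of -0.75 (-1.02 to -0.49, adjusted p = 0.00906). The genes are near-identical copies, so a probe may read both. Of 20 defence genes, 3 rose with compound 2 and 6 with compound 6, and these were the 2 that differed. With the block 7 and 10 rose, and 4 differed upwards and 2 downwards.

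Spaca3, a lysozyme-like protein of sperm, rose by 1.98 ± 0.24 with compound 2 and was well above background on all arrays of letters A to C. In letters D to G no vehicle array and 2 of 4 compound 6 arrays had it above background, at least 1.11-fold higher than vehicle, so the size of the difference was not measured; the fitted difference was called (adjusted p = 0.0143) but was 0.036 under the scanner's log ratios. C2cd4a, a nuclear protein induced by inflammatory cytokines, rose by 1.01 ± 0.13 against 0.12 ± 0.11 (difference -0.89, adjusted p = 0.0197), and a second probe gave 1.18 and 0.04.

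Other negative differences came from falls with compound 6. Abcc9, the regulatory subunit of a potassium channel, was well above background on all 4 vehicle arrays of letters D to G and on none of the compound 6 arrays, at least 2.59-fold lower with the compound. In letters A to C only 1 vehicle array and no compound 2 array had it above background, and the compound 2 change of 0.00 ± 0.16 is therefore one between levels at or near background. Rgcc, a regulator of the cell cycle and complement response, gave 1.30, 1.43, -0.51 and 1.13 in vehicle D to G and -1.26, -1.18, -2.11 and -1.35 with compound 6, all below vehicle. Its vehicle arrays A to C, at -1.36 to -1.24, already lay at the level of the treated compound 6 arrays. It fell by 2.31 with compound 6 and changed by -0.14 ± 0.34 with compound 2 (difference -2.17, adjusted p = 0.0361, lost under 18 of 27 alternatives). The Rgcc difference was -2.40 without the letter F arrays (adjusted p = 5.93e-08) and -2.61 without vehicle F alone (adjusted p = 5.09e-06).

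Zmat4 (-0.24 ± 0.26 and -1.86 ± 0.23, difference -1.62) and C4bp, a complement inhibitor (0.04 ± 0.16 and -0.99 ± 0.14, difference -1.03), followed the same order, and so did Soat1, which esterifies cholesterol (-0.14 ± 0.14 and -1.07 ± 0.12, difference -0.93). The potassium channel gene Kcnk1 gave 0.49 ± 0.16 and -0.54 ± 0.14 (difference -1.03), its compound 2 value passing with the block (adjusted p = 0.022). These 4 calls were lost under 15 to 17 of the alternatives run. Among genes with opposite called changes, the named ones were Tppp, which bundles microtubules (0.53 ± 0.12 and -0.30 ± 0.10), Dag1, dystroglycan (0.25 ± 0.07 and -0.34 ± 0.06), Ash2l, a subunit of histone methyltransferases (0.34 ± 0.08 and -0.25 ± 0.07), and Dlg3, a scaffold of cell junctions (0.32 ± 0.07 and -0.19 ± 0.06). The largest of these 8 changes was 0.53 in size.

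Stem cell genes fell more widely with compound 6. Of 25 measured, 5 fell and 1 rose with compound 2 and 16 fell with compound 6, with list medians of -0.11 and -0.62; 5 fell with both, namely Tnfrsf19, Rnf43, Axin2, Cdca7 and Bmi1. With the block 3 rose and 7 fell with compound 2. A difference was called for Soat1 alone, for 8 members with the letter block and for 9 without the letter F arrays, all more negative with compound 6. The vehicle sets differed for 12 of the 25, all higher in D to G.

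Lgr5 gave 0.64, 0.23 and 0.69 in vehicle A to C and 0.69, 0.50 and 0.44 with compound 2. It gave 4.24, 4.16, 1.00 and 3.71 in vehicle D to G and 1.40, 1.13, 0.79 and 1.17 with compound 6. Vehicle A to C and vehicle F thus lay below or near the treated compound 6 arrays, and vehicle D, E and G far above them. The change was 0.03 ± 0.53 with compound 2 and -2.16 ± 0.46 with compound 6 (adjusted p = 0.00211), and the difference of -2.18 (-3.64 to -0.72) was not called (adjusted p = 0.14). With the block its adjusted p was 0.0313, and without the letter F arrays the difference was -2.83 (adjusted p = 2.28e-06).

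Ascl2, a transcription factor that specifies crypt stem cells and is itself a Wnt target, started closer together. Vehicle A to C lay at 3.13, 3.35 and 3.41 and compound 2 at 1.84, 2.73 and 2.41; vehicle D to G lay at 4.49, 4.37, 3.29 and 4.44 and compound 6 at 2.16, 2.19, 0.69 and 2.57. Every treated array was below its own vehicle arrays. The changes were -0.97 ± 0.36 (adjusted p = 0.142, and 0.00886 with the block) and -2.25 ± 0.32 (adjusted p = 7.49e-05). The difference of -1.28 (-2.29 to -0.27) was not called. It passed with the block (adjusted p = 0.0197), without the letter F arrays (-1.16, adjusted p = 0.00712) and without the vehicle F array alone (-1.56, adjusted p = 0.0355).

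Sox9, a transcription factor of crypt progenitors, fell with compound 6 (-1.24 ± 0.29) and gave -0.97 ± 0.33 with compound 2, where it was not called but passed under 6 of 27 alternatives, the block among them (adjusted p = 0.00176). Sp5, a direct Wnt target, was well above background on 2 of 3 vehicle arrays of A to C and on all arrays of D to G. It fell by 1.76 with compound 6 and gave -0.49 ± 0.41 with compound 2, a difference called with the block (adjusted p = 0.00774). Leaving out the letter F arrays, the Sp5 difference was -1.08 and was not called (adjusted p = 0.167). Lef1 and Tcf7, the DNA-binding partners of beta-catenin, fell with compound 6 (-0.89 ± 0.12 and -0.75 ± 0.09) and gave -0.17 ± 0.14 and -0.23 ± 0.10 with compound 2. Their differences, -0.72 and -0.51, were not called, but passed with the block (adjusted p = 0.00801 and 0.0188) and without the letter F arrays (-0.81 and -0.64, adjusted p = 0.000332 and 0.00119). For Tcf7 a second probe gave -0.18 and 0.05. Smoc2, a matrix protein of stem cells, rose with compound 2 (1.74 ± 0.47) and gave -0.45 ± 0.41 with compound 6, a difference of -2.19 that passed with the block (adjusted p = 0.00683). Of 26 Wnt targets listed and measured, among them Ascl2, Lgr5, Sox9, Sp5, Lef1 and Tcf7, none passed with compound 2 in limma's test (8 at an unadjusted p under 0.05, 6 with the block), and 5 rose and 7 fell with compound 6. Limma called no difference in this list (8 at an unadjusted p under 0.05), while 1 upward and 6 downward differences were called with the block, and as many without the letter F arrays.

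Replication genes fell with compound 6. Of 29 measured, 24 fell and 1 rose with it, and 2 rose with compound 2, with list medians of -0.94 and 0.09. The per-letter medians were 0.11, -0.02 and 0.14 in letters A to C and -1.04, -1.17, -0.12 and -1.40 in letters D to G, letter F standing apart. The vehicle sets differed for 24 members, all higher in D to G, by a list median of 1.26. Limma called no difference between the compounds (22 at an unadjusted p under 0.05), while 20 were called with the block and 25 without the letter F arrays, all more negative with compound 6.

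Rrm2, the small subunit of ribonucleotide reductase, showed the pattern. It lay at -5.84 to -5.38 in vehicle A to C and at -5.48 to -5.16 with compound 2, at -1.70, -1.64, -4.95 and -1.83 in vehicle D to G and at -3.50, -3.65, -5.20 and -4.70 with compound 6. The letters A to C and vehicle F sat at the low end from the start. The changes were 0.25 ± 0.67 and -1.73 ± 0.58, the difference -1.98 (-3.84 to -0.13, adjusted p = 0.311, and 0.0163 with the block), and -2.48 without the letter F arrays (adjusted p = 0.00244).

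Pcna, the sliding clamp of DNA polymerase, was the exception in the list, rising with both compounds (0.60 ± 0.15 and 0.57 ± 0.13). Mcm6, a helicase subunit, rose by 1.73, 1.66 and 2.02 in letters A to C and changed by -0.61, -0.80, 2.13 and -0.76 in letters D to G. Its mean with compound 6, -0.01 ± 0.36, averages letter F with the other 3. Without the letter F arrays Mcm6 fell by 0.72 with compound 6 (adjusted p = 0.000316) and the difference was -2.53 (adjusted p = 4e-07), against -1.81 with them, which passed with the block (adjusted p = 0.0491). Of 28 genes of mitosis none passed with compound 2 in limma's test, with the block or at an unadjusted p under 0.05 (0 in each), and 3 fell with compound 6, or 25 with the block and 24 without the letter F arrays. Mki67, the proliferation marker, gave 0.21 ± 0.69 and -1.17 ± 0.60 (adjusted p = 0.00156 with the block for compound 6, and 0.0345 for the difference), and without the letter F arrays it fell by 1.49 with compound 6 (adjusted p = 0.00189). Myc itself gave 0.04 ± 0.25 and -0.12 ± 0.22. With compound 6 it gave -0.35 without the letter F arrays (adjusted p = 0.0662). Without vehicle F alone the Myc change with compound 6 was -0.44 and was called (adjusted p = 0.0174).

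**Figure D5:**
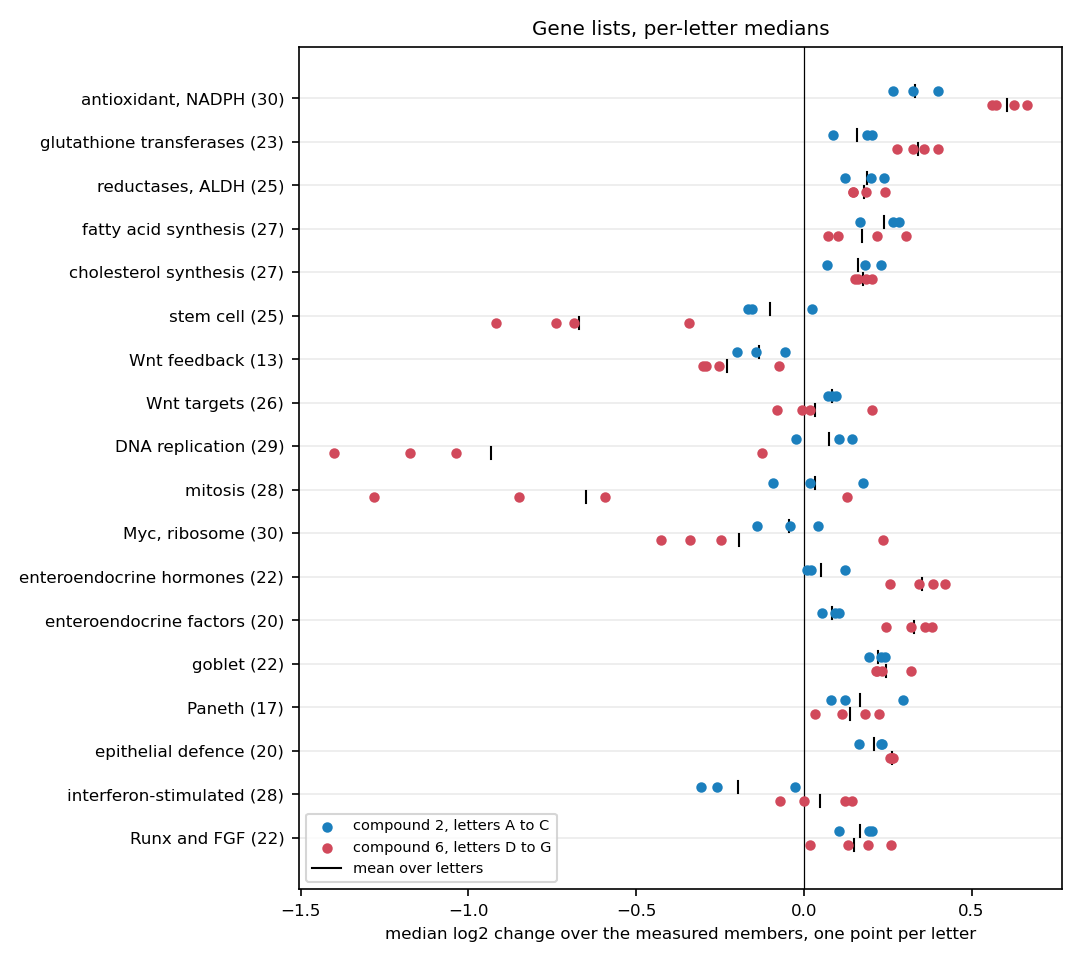
Median log2 change over the measured members of 18 gene lists, one point per letter (blue compound 2, red compound 6), with a tick at the mean over letters and the number of members in brackets. The antioxidant list lies right of 0 on every letter and further right with compound 6, and the replication, mitosis and stem cell lists lie left of 0 with compound 6 except for the mitosis list on letter F (0.13).

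Of the secretory lineages, the enteroendocrine lists gave most calls with compound 6. Neurog3, the factor that starts enteroendocrine differentiation, lay at 3.43 to 4.29 in vehicle D to G and at 5.00 to 5.52 with compound 6, a rise of 1.42 ± 0.40. With compound 2 it gave 0.51 ± 0.46 (adjusted p = 0.652, and 0.00934 with the block, which also called the difference, adjusted p = 0.00469). The Neurog3 difference was not called without the letter F arrays (0.87, adjusted p = 0.497). Neurod1 (0.65 ± 0.11) and Lmx1a (0.64 ± 0.13), which act after it, also rose with compound 6, but neither was well above background on any array of letters A to C.

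Of 22 enteroendocrine hormone and granule genes, none passed with compound 2 in limma's test (2 at an unadjusted p under 0.05, 2 with the block), and 11 rose with compound 6, with list medians of 0.03 and 0.35. Members well above background on at least 1 array numbered 14 in vehicle A to C and 22 in vehicle D to G, and the vehicle sets differed for 18, all higher in D to G (median 2.45). Gcg, proglucagon, lay at 0.02 to 0.06 in vehicle A to C, where no array had it above background, at 3.79, 3.73, 1.95 and 3.59 in vehicle D to G and at 5.41, 5.43, 4.57 and 5.37 with compound 6. It rose by 1.93 ± 0.41 with compound 6; for compound 2 this gene was not measured well enough for a comparison. Pcsk1, a prohormone convertase (1.44 ± 0.24), and Scg2, a secretogranin (1.46 ± 0.30), rose with compound 6 and were in the same position. Vgf, a granule peptide precursor that was above background on all 14 arrays, rose by 0.78 ± 0.11 with compound 6 and gave -0.08 ± 0.13 with compound 2, the 1 called difference of the list (0.86, 0.50 to 1.21, adjusted p = 0.0237). With the block 6 members differed upwards and 1 downwards, and without the letter F arrays 9 upwards.

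Atoh1, the switch to the secretory lineage, rose with compound 6 (1.05 ± 0.21) and gave 0.65 ± 0.24 with compound 2 (adjusted p = 0.145). Its targets Gfi1 and Spdef rose with both, Gfi1 by 0.81 ± 0.15 and 0.95 ± 0.13 (difference 0.14, -0.27 to 0.55) and Spdef, a goblet and Paneth cell factor, by 0.61 ± 0.17 and 0.82 ± 0.15 (difference 0.21, -0.27 to 0.69). The compound 2 call of Spdef was lost under 16 of 27 alternatives, and that of Gfi1 under none of them. The Notch ligand gene Dll4 rose with compound 6 (1.14 ± 0.12) and gave 0.33 ± 0.14 with compound 2, a difference of 0.81 that was not called (adjusted p = 0.0518). It passed with the block (adjusted p = 0.01), without the letter F arrays (0.83, adjusted p = 0.0135) and under 7 of 27 alternatives in all. Of 22 goblet genes 1 rose with compound 2 and 6 with compound 6 (6 and 11 with the block). Of 20 tuft genes 2 rose with compound 2 (4 with the block), and 2 rose and 1 fell with compound 6 (8 and 1 with the block). Of 17 Paneth genes 2 and 3 rose (3 and 5 with the block), Nupr1, a stress-induced cofactor, by 0.96 ± 0.16 and 0.78 ± 0.14.

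Inflammatory and interferon genes gave few calls. Il18, an epithelial cytokine, rose by 1.38, 1.16 and 1.34 with compound 2 and by 2.28, 2.35, 1.63 and 2.30 with compound 6. The compound 2 rise, 1.29 ± 0.41, and the difference, 0.85, were not called, but passed with the block (adjusted p = 1.19e-05 and 0.00944). Without the letter F arrays the Il18 difference was 1.02 (adjusted p = 0.0199), and the compound 2 rise passed under 4 of 27 alternatives. Nfkbiz, an inducible modulator of NF-kappaB, rose with compound 6 (1.25 ± 0.21) and gave -0.07 ± 0.24 with compound 2, a difference called with the block (adjusted p = 0.000807). Mx2, an antiviral GTPase, fell with compound 2 (-0.91 ± 0.24, adjusted p = 0.0356) and gave -0.04 ± 0.21 with compound 6, a difference likewise called with the block (adjusted p = 0.00542). The Mx2 difference was not called without the letter F arrays (0.80, adjusted p = 0.218). Of 28 interferon-stimulated genes, 1 fell with compound 2 (13 with the block, with 1 up), and 2 rose and 1 fell with compound 6 (6 and 5 with the block). The vehicle sets differed for 22 of these, 20 of them lower in D to G. Ly6a (Sca-1), a marker of regenerating epithelium, rose with both (1.12 ± 0.15 and 0.54 ± 0.13), and the difference of -0.57 passed with the block (adjusted p = 0.00636). It did not pass without the letter F arrays (-0.56, adjusted p = 0.161).

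Some markers of cells outside the epithelium rose with compound 6. Of all genes tested, 3.32% rose with compound 2 and 11.4% with compound 6. Of 17 leukocyte markers none passed with compound 2 in limma's test (3 at an unadjusted p under 0.05, 3 with the block) and 9 rose with compound 6, and of 13 fibroblast markers 1 and 5 rose (2 and 7 with the block). The mean level of the leukocyte list lay at -1.85 to -1.72 in vehicle D to G and at -1.59 to -1.50 with compound 6, and that of the fibroblast list at -4.96 to -4.88 and at -4.80 to -4.63. Csf1r, described above, is in the leukocyte list and rose with compound 6. Ptprc, the pan-leukocyte marker CD45, gave 0.11 ± 0.10 and 0.16 ± 0.09 and passed with neither compound. Of 7 endothelial markers 1 rose with compound 2, and 1 rose and 1 fell with compound 6. With the block 2 rose and 1 fell with compound 2, and 1 rose and 2 fell with compound 6. The part of these markers in the compound 6 changes was not tested.

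The targets of the compounds were measured as well. Cdk8 gave 0.25 ± 0.09 with compound 2 and 0.17 ± 0.08 with compound 6, below the threshold in each case (adjusted p = 0.121 and 0.108, and 0.0177 and 0.0242 with the block). Cdk19 gave -0.32 ± 0.10 with compound 2 (adjusted p = 0.0714, and 0.0128 with the block) and fell by 0.32 with compound 6 (adjusted p = 0.0109), with a difference of -0.28 to 0.27 by its interval. Ctnnb1, endogenous beta-catenin, gave 0.11 ± 0.06 and -0.04 ± 0.05. Of 6 genes of the Mediator kinase module, Cdk19 was the 1 that passed in limma's fit with the set term, and with compound 6 (with the block 1 rose and 1 fell with either compound).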

How the data were processed

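RNA of organoids (Cy3) was hybridised against Universal Mouse Reference RNA (Cy5) on 21 Agilent 2-colour arrays with no dye swap, per the labels. Per the file headers, Feature Extraction 10.7.3.1 read 62976 spots per array; its deposited files hold spot intensity (mean and background signals, starting point of the main values), processed signals and a log10 ratio of red over green, whose sign was turned. The deposited series matrix holds log2 values; set against the scanner files, its columns correlated at 0.914 to 0.934 with sample over reference, with medians of 0.0500 to 0.255, while its centring and normalization are not given in the sources used here.

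Signals were background-corrected with normexp (offset 50) and normalized by loess within arrays, with 3671 control spots given no weight, in R 4.3.3 with limma 3.58.1. Spots of a probe were averaged, 157 non-uniform spots were left out, and no spot was saturated. Of 55681 probes, 29648 passed a filter (3 or more of the 21 arrays marked by the scanner software as well above background in Cy3), and the brightest probe stood for its gene. This gave 21389 genes, 13816 of them matched to RefSeq accessions; gene names are otherwise those of the array design, and probe coordinates are the files' (mm9). Arrays correlated at 0.882 to 0.994 with each other.

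All 21 arrays entered 1 limma fit of treatment and letter set, tested on simulated data, with contrasts for compound 2, compound 6 and their difference, two-sided, adjusted by Benjamini-Hochberg. The letters pair the samples by this check: deviations from group means correlated at 0.250 to 0.745 in all 7 same-letter pairs of a compound and vehicle (other-letter pairs -0.629 to 0.530, 18 pairs), and 11 of 14 arrays had their best partner under their own letter. The 2 scan days coincide with the letter sets. The 27 alternatives covered background, normalization, filters, probes, letter and slide blocks, the set term and left-out arrays.

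Genes were named by rule: the 12 strongest rises and 12 strongest falls shared by the compounds and seen on every letter, the 10 highest and 10 lowest differences, the 6 strongest opposite changes, up to 4 per list in 35 lists, and a set of Wnt, NRF2 and target genes named in any case. Outside this rule, and chosen after their values were seen, are Alb, Bmi1, Cbr4, Gss, Mgst3, Nkd2, Notum, Pcna, Pgd, Prdx6, Ptprc, Slc7a11, Smoc2 and Srxn1. The members and lists were chosen with earlier results of these data known, so a pattern seen in them is no independent support. Figures were drawn with matplotlib 3.10.9.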

Additional observations from a re-analysis of the deposited data

Results flagged for a closer look

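Among 141 sets of the 4 per-letter changes with compound 6 (named genes and list medians), 9 had a letter whose gap to its nearest neighbour was above Dixon's 95% critical value as a share of the range. Chance alone gives about 1 in 20. In 7 of the 9 the letter was F, the letter of the vehicle array that stood apart.

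Of the genes that rose with compound 6, Prdx6, a peroxiredoxin, changed by 0.81 on letter F against a median of 0.54 over the letters. Gcg, proglucagon, changed by 2.62 on letter F against 1.74, and the cytokine gene Il18 by 1.63 against 2.29. The inhibitor of differentiation Id4 changed by 0.29 on letter F against 1.06.

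Of the genes that fell, Cdca7, a Myc target, changed by -0.73 on letter F against -1.89, and Rgcc by -1.60 against -2.52. The helicase gene Mcm6 changed by 2.13 on letter F against a median of -0.68, a change of the opposite sign.

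Letter E stood apart for the desaturase gene Scd3, with 1.21 against 1.47, and for the median of the goblet list, with 0.32 against 0.22.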

How the results depend on the processing

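The letter as a replicate block in place of the set term raised the counts to 3710 genes with compound 2, 8829 with compound 6, 2577 in the same direction, 2493 of them alike within -1 to 1, and 1967 that differ; without every letter F array they were 2305, 6511, 1533, 1441 and 1533. Fitted on the 14 arrays alone they were 726 with compound 2, 511 in the same direction, 466 alike and 45 that differ. Without the set term 3635 genes passed with compound 2 and 9086 differed, with r = -0.19 between the changes, since the vehicle sets then mix. Median centring gave 1929, 1484, 1438 and 55. Differences fell to 36 under the scanner's log ratios (r = 0.39), 35 in the Cy3 channel alone (r = 0.46) and 37 in the series matrix (r = 0.25). Leaving out 1 array at a time gave 547 to 1581 genes with compound 2, 3748 to 7337 with compound 6, 423 to 1134 in the same direction, 391 to 1050 alike, 45 to 1584 that differ, and r of 0.51 to 0.58. Offset 16, either filter, probe means and the slide block kept the counts within 1.5 times.

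Single genes reversed under 4 settings; the cause was not tested. With the scanner's log ratios these were Lect2 (compound 6, 0.035), Olfr558 (compound 6 and difference, -0.10 each), Neurod1 (compound 6, -0.086), Gpr112 (difference, -0.019) and Spaca3 (difference, 0.036). In Cy3 alone Adh6a gave 1.15 with compound 2. In the series matrix Ces3a gave -2.98, Lect2 0.032, Adh6a -0.73, Gcg -0.32 and Lmx1a -0.27 with compound 6, and Adh6a -0.76 as a difference. Without the set term Nqo1 gave -0.35 and Dag1 -0.26 with compound 2, Cyp2c70 0.15, Dag1 0.047 and Sp5 0.26 with compound 6, and the differences were Gstm1 1.14, Adh6a -0.26, Abcc9 0.10, Dag1 0.31, Sp5 3.45, Myc 1.46, Atoh1 -1.25, Spdef -0.91, Gfi1 -0.64 and Insig2 -0.20.

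The called differences of Gclc, Gsr, Pgd, Runx1 and Osbpl1a held under all 27 alternatives, and that of Pir was lost under 8. Genes near background, such as Lmx1a and Neurod1 in letters A to C, limit what can be said of compound 2.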
